A study of Mus musculus with 7 samples.

Results

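Ependymal cells of the ventricular-subventricular zone (V-SVZ), the germinal region beside the lateral ventricles, were selected by the raw counts of 4 ciliary genes. A cell entered when its Ccdc153, Tmem212, Enkur and Foxj1 unique molecular identifiers (UMIs, counted transcript molecules) summed to 4 or more, with no Mog UMI (oligodendrocytes), no Cldn5 UMI (endothelial cells) and at most 1 Dcx UMI (neuroblasts). The gate was applied to cells with 500 to 7000 detected genes and at most 10% mitochondrial UMIs. It took 1916 of 43346 such cells (4.42%), out of 65049 barcodes. The lateral walls of mice aged 31 to 33 days were sequenced in 7 droplet libraries. Each library is a pool of 2 to 3 mice, described as males and females together. The 3 control libraries carried the genotype Prdmflox/flox, that is, floxed Prdm16 alleles without Cre. The 3 cKO libraries were hGFAP-Cre+/-; Prdm16flox/flox, and the single DKO library was hGFAP-Cre+/-; Prdm16flox/flox; Vcam1flox/flox. The Cre transgene is driven by a human GFAP promoter that is active in embryonic radial glia. Their later progeny, ependymal cells included, would carry the deletion, which the counts used here do not show. Replicates are separate pools, and every p-value below measures the spread between pools.

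Ependymal cells form the epithelium that lines the brain ventricles. They arise from radial glia, leave the cell cycle before birth and later grow tufts of motile cilia whose beating moves cerebrospinal fluid. Foxj1 is the master regulator of motile cilia, and RFX factors act beside it by binding a DNA motif called the X-box in the promoters of ciliary genes. Prdm16 is a zinc finger transcriptional regulator expressed in radial glia, and Vcam1 is a cell adhesion molecule of neural stem cells and the niche.

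The gated cells numbered 325, 87 and 477 in control libraries 1, 2 and 3, 264, 190 and 321 in cKO libraries 1, 2 and 3, and 252 in the DKO library (values are given in this order throughout). Their summed UMIs ranged from 602437 in control 2 to 5168673 in control 3. Their median UMIs per cell were 5593, 1931 and 8840 in the controls, 9911.5, 11958 and 13284 in the cKO libraries and 7321.5 in the DKO library. A barcode found in more than 1 library made up 8.0, 27.6 and 5.24% of the gated cells in the controls, 18.9, 2.63 and 2.80% in the cKO libraries and 9.52% in the DKO library. Among the other kept cells it was 1.88 to 2.69%. Most of these gated cells in control 1, control 2 and cKO 1 had their larger total in cKO 2, with 20, 22 and 38 cells. In control 3 and the DKO library 12 of 25 and 22 of 24 had it in cKO 3. In these 5 libraries they held a median of 0.600 to 0.895% of the larger total. In gated cells Xist stood at 0.353, 264 and 203 counts per 1000000 UMIs (CPM) in the controls, 285, 0.401 and 305 CPM in the cKO libraries and 2.74 CPM in the DKO library. Control 1, cKO 2 and the DKO library were thus near 0 although the pools were described as holding both sexes. Values without the shared barcodes and without those 3 libraries are given beside the counts of changed genes.

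The label was checked on 16 ependymal markers that the gate did not use, among them Rarres2 (chemerin), Mia, Hdc (histidine decarboxylase) and Rsph1, a radial spoke protein. Their summed level was 16582, 16642 and 16602 CPM in gated control cells, 16098, 10421 and 10130 CPM in gated cKO cells and 11480 CPM in the DKO library. Astroglia of the same libraries were taken as cells with 8 or more UMIs of Slc1a3, Slc1a2, Gja1 and Aqp4, no UMI of the 4 gate genes or of Mki67 and the same limits on Mog, Dcx and Cldn5. In them the sum was 446 to 632 CPM. Endothelial cells, used as another comparison, were taken as cells with 3 or more Cldn5 UMIs, no UMI of the gate genes and the same limits on Mog and Dcx. The same 16 markers summed to 3312 to 4827 CPM in them. Gated cells exceeded both in every library, and cKO 2, cKO 3 and the DKO library were lower than the controls and cKO 1.

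The gate asks for a number of UMIs and not for a density, so cells with large totals could enter with few gate UMIs per transcript. The gated cells were divided at 10 gate UMIs per 10000 UMIs, a limit chosen after the data were seen. This gave 1592 marker-dense cells and 324 marker-sparse cells (16.9%), with 182 of the 1916 between 5 and 20. By library, 13, 9 and 37 of the marker-sparse cells lay in the controls, 27, 68 and 109 in the cKO libraries and 61 in the DKO library. Levels in marker-sparse control cells, here and below, therefore rest on few cells. Marker-sparse cells were 4.0, 10.3 and 7.76% of gated control cells, 10.2, 35.8 and 34.0% of gated cKO cells and 24.2% of gated DKO cells. The cKO mean exceeded the control mean by 19.3 percentage points, given as a description with no test because the density uses the gate genes. The highest control, at 10.3%, lay just above the lowest cKO library. Marker-sparse cells had the larger totals, with median UMIs of 9042 to 16430.5 over the libraries against 1683.5 to 8875 in marker-dense cells. They supplied 4.54, 27.3 and 10.3% of gated UMIs in the controls, 14.4, 47.7 and 40.9% in the cKO libraries and 37.4% in the DKO library. Much of the difference in totals follows from the rule, since 4 gate UMIs in a small total always pass the density limit. Of the 1592 marker-dense cells, 1439 had a barcode found in no other library.

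**Figure D1:**
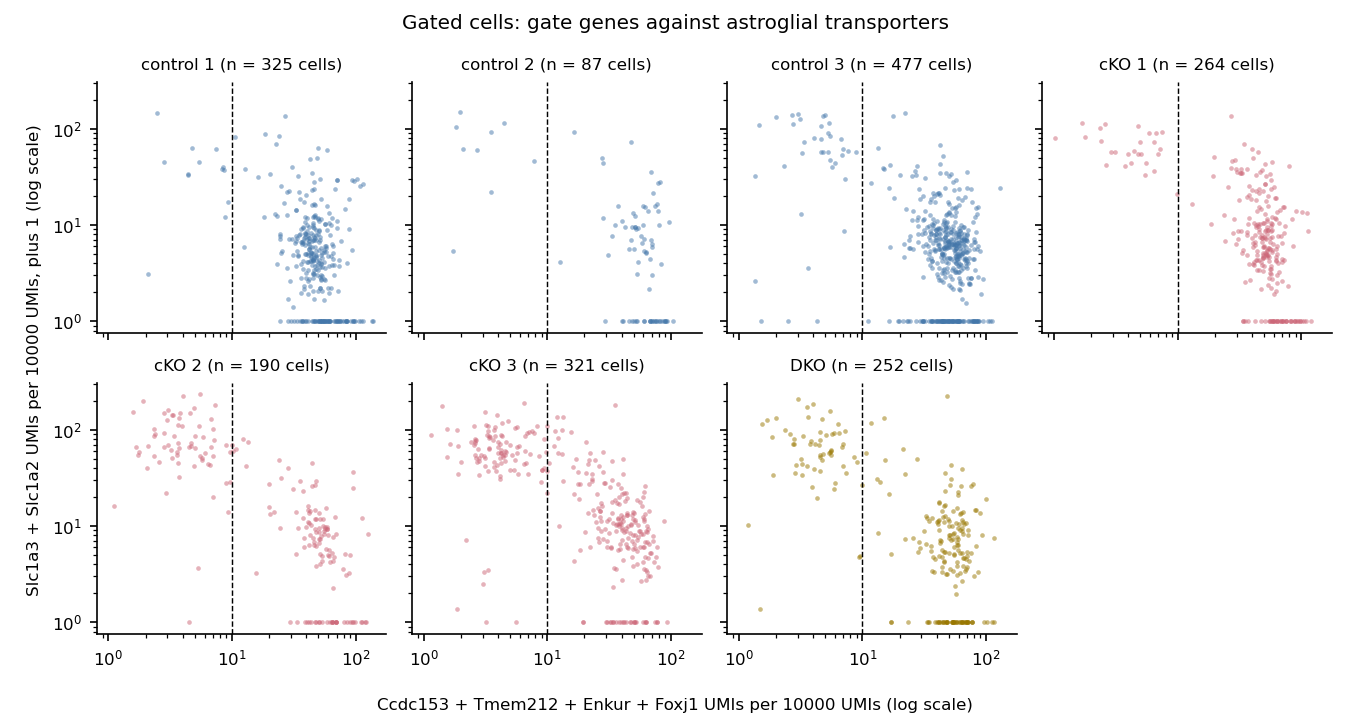
Each point is 1 gated cell, in 1 panel per library. The horizontal axis gives the 4 gate genes' UMIs per 10000 UMIs and the vertical axis the Slc1a3 and Slc1a2 UMIs per 10000 plus 1, both on log scales, and the dashed line marks 10. Left of the line lie 68 cells in cKO 2, 109 cells in cKO 3 and 13 cells in control 1. These counts hold cells with high and with low Slc1a3 and Slc1a2, since no limit on those genes was set.

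The marker-sparse cells held less of the ependymal markers. Their 16 markers summed to 1059 to 1919 CPM over the libraries, above astroglia and below endothelial cells. In marker-dense cells the sum was 17278, 22438 and 18388 CPM in the controls, 18491, 18555 and 15804 CPM in the cKO libraries and 17266 CPM in the DKO library. Ccdc153, itself a gate gene and given as a description, stood at 9.29 to 69.9 CPM in marker-sparse and 1578 to 2091 CPM in marker-dense cells. Foxj1 stood at 71.4 to 175 and 500.1 to 769 CPM. Trp73, which encodes the p53 family protein p73 needed for multiciliated cells, was at 0 CPM in marker-sparse cells of 6 libraries and at 0.84 CPM in cKO 2. Astroglial genes ran the other way. The 7 astrocyte markers Aqp4, Slc1a2, Aldoc, Agt, Ntsr2, Slc6a11 and Fgfr3 summed to 5299 to 9616 CPM in marker-sparse cells, against 1390 to 2040 CPM in marker-dense cells and 10072 to 11825 CPM in astroglia. Gfap, the intermediate filament of astrocytes and neural stem cells, was at 256, 469 and 120.2 CPM in marker-sparse control cells, 931, 982 and 1268 CPM in marker-sparse cKO cells and 797 CPM in the DKO library. The 18 genes of the inner dynein arm and nexin link summed to 2945 to 3869 CPM in marker-dense cells, 304 to 598 CPM in marker-sparse cells, 125 to 163 CPM in astroglia and 23.8 to 43.8 CPM in endothelial cells. The ependymal label thus held for the marker-dense cells, and the marker-sparse cells are called by their rule. Marker-sparse cells also held lists of other classes. Neuroblast genes summed to 1041, 1534 and 430 CPM in the controls and 74.3 to 191 CPM in the cKO libraries. Genes of dividing cells summed to 528, 116 and 379 CPM in the controls and 9.29 to 158 CPM in the cKO libraries. Haemoglobin genes summed to 62.2 to 223 CPM in the controls and 23.2, 8812 and 8196 CPM in the cKO libraries. The marker-sparse cells of control and cKO libraries may thus be unlike mixtures. Scrublet, a doublet caller, marked 22 of the gated cells (1.15%), all of them marker-dense, and 1043 of all kept cells (2.41%). Markers of other classes were also measured in marker-dense cells. The endothelial list summed to 22.2 to 57.1 CPM, the microglia list to 33.8 to 58.3 CPM and the neuroblast list to 110.05 to 145 CPM in the controls and 59.8 to 109.9 CPM in the cKO libraries. The oligodendrocyte list summed to 334 to 1139 CPM, the haemoglobin list to 35.1 to 2580.05 CPM and the choroid plexus list to 161 to 232 CPM. The mural list summed to 421 to 922 CPM, and its members at 10 CPM or more in gated cells of every library had a median log2 ratio to other cells of 2.10. Acta2 and Tagln, genes of the contractile apparatus of smooth muscle, made up most of it with 313 to 539 and 93.1 to 369 CPM, while Rgs5, a gene of pericytes, was at 0 to 35.0 CPM.

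The upper limit on genes removed many cells of this kind. In all 65049 barcodes 3033 passed the gate, of which 578 were left out for more than 7000 genes, 416 for more than 10% mitochondrial UMIs and 123 for fewer than 500 genes. Of the 1874 barcodes with more than 7000 genes that were otherwise kept, 1182 (63.1%, and 28.3 to 85.4% by library) had a dense gate signal. This count was made before the limits on Mog, Dcx and Cldn5, and 578 of the 1874 passed the full gate. The limit took 13.7 to 36.5% of the gated cells that passed the other filters, with the lowest share in the DKO library and the highest in cKO 2. The negative genes took 1045 of 2961 kept cells that had 4 or more gate UMIs. At the edge of the rule, kept cells with a gate sum of 4 had a median of 9 to 16 UMIs of the 16 other ependymal markers by library, and cells with a sum of 3 had 7.5 to 11.

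**Figure D2:**
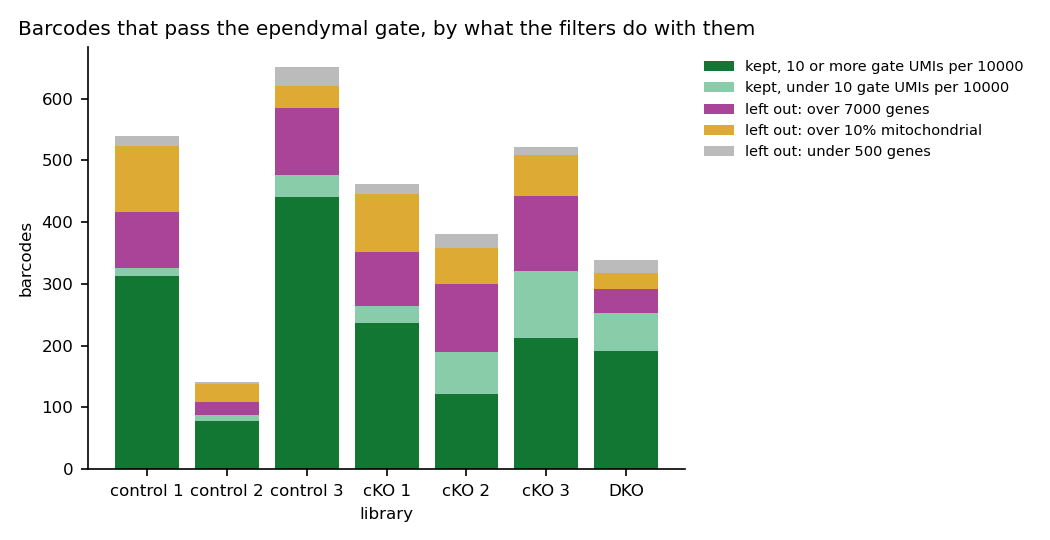
Stacked bars give, for each library, the number of barcodes that passed the ependymal gate, divided into marker-dense and marker-sparse cells that were kept and barcodes left out for more than 7000 genes, more than 10% mitochondrial UMIs or fewer than 500 genes. The sparse part is 68 cells in cKO 2 and 109 in cKO 3, and barcodes above 7000 genes number 22 in control 2 and 121 in cKO 3.

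The share of gated cells among kept cells overlapped between the genotypes. It was 4.21, 1.84 and 5.02% in the controls (mean 3.69 ± 1.65, SD, n = 3), 4.25, 10.2 and 5.0% in the cKO libraries (mean 6.47 ± 3.22, SD, n = 3) and 3.65% in the DKO library. The means differed by 2.78 percentage points, given as a description because the gate genes set the share. Without cKO 2 the difference was 0.936 points, and for marker-dense cells alone it was 1.11 points, a description with no test. Without the limit on genes the shares were 5.28, 2.20 and 5.85% in the controls, 5.50, 14.4 and 6.46% in the cKO libraries and 4.14% in the DKO library. A share of captured cells depends on dissociation and on every other cell type in the library, and the number of ependymal cells in the tissue cannot be told from it.

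The genes that led in gated cells were ranked by their ratio to other cells. Among 2774 genes with at least 50 CPM in gated cells of every library, 180 were at least 3 log2 units above the other kept cells of the same library in all 7 libraries. These values are a description, since the gate selects cells by genes of the same program. Its own genes Tmem212, Ccdc153 and Enkur are among those counted, and Tmem212 is among the 25 leading genes. The first in order was Dnah12, an inner dynein arm heavy chain, at 156 to 424 CPM in gated cells with a median of 7.66 CPM in the other cells, a log2 ratio of 4.28 to 5.66. Next came Stoml3, a membrane protein of the stomatin family, Ecrg4, a secreted peptide precursor, and Acot5, a peroxisomal acyl-CoA thioesterase. Hydin, a protein of the central pair of the ciliary axoneme whose loss gives hydrocephalus in mice, was at 145 to 315 CPM in gated cells and had a median of 1.32 CPM in astroglia. Spag16 and Spag17, which also belong to the central pair, Dnah11 and Armc4 of the outer dynein arm, and Cfap45 and Tekt4 of the inside of the ciliary microtubules were among the 25 leading genes. Hdc and Lbp, the lipopolysaccharide binding protein, are members of these 25 with roles outside the cilium, at 226 to 537 and 180 to 678 CPM. By cell, Dnah12 had a UMI in 39.7 to 70.5% of marker-dense cells by library and in 0 to 1.43% of astroglia, and Hydin in 30.8 to 69.6% and 0.258 to 3.14%.

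**Figure D3:**
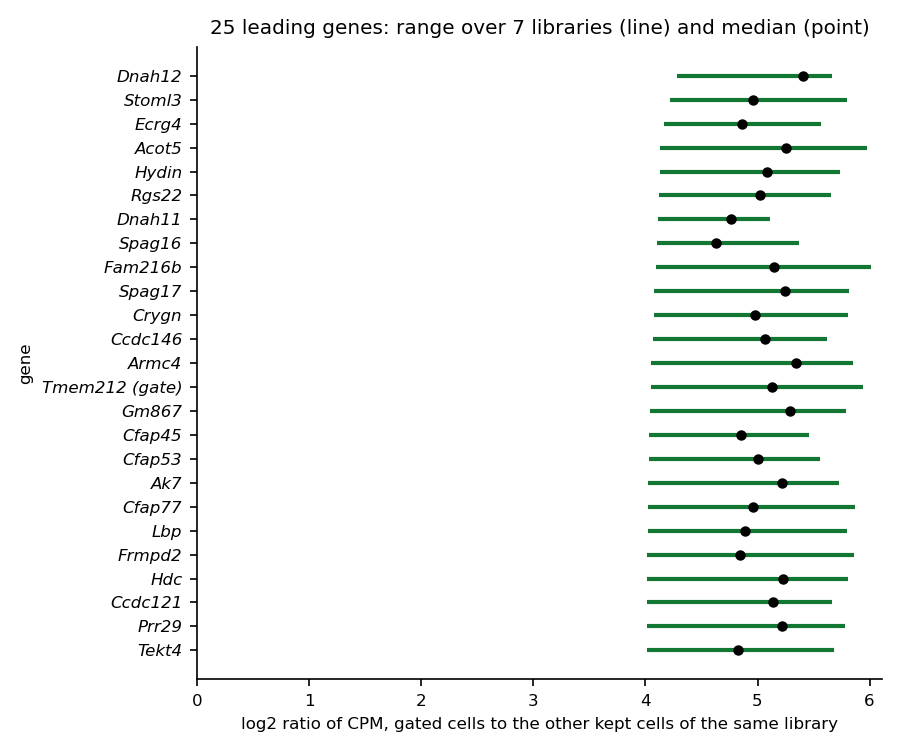
For the 25 leading genes, the line spans the lowest to the highest of 7 libraries and the point marks the median of the log2 ratio of CPM in gated cells to the other kept cells of the same library. Tmem212 is a gate gene, so the gate sets its ratio. The line of Tekt4 starts at 4.01 and that of Dnah12 spans 4.28 to 5.66.

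The X-box was looked for in the promoters of the 50 leading genes, as 250 bases before to 50 after the gene start in RefSeq on GRCm38.p6. The letters GTNNCCNNNGNAAC on either strand were found for 7 of the 38 genes that matched an entry (18.4%), against 673 of 27025 genes in all (2.49%). The forkhead letters GTAAACA on either strand were found for 3 of the 38 (7.89%), against 4.05% of all genes. A match is a description of letters and no evidence of binding. The 250 bases before the start are shown for 4 of the 7 genes, read 5′ to 3′ on the gene's own strand with the X-box match in capitals. They show the match at short and at longer distances. It ends 7 and 5 bases before the start in Hydin and Cfap45. It ends 89 and 86 bases before it in Spag16 and Iqca, which encodes a ciliary protein with IQ and AAA domains. The windows are chr8:110266727-110266976 on the + strand for Hydin, chr1:69826720-69826969 on the + strand for Spag16, chr1:172520880-172521129 on the + strand for Cfap45 and chr1:90153437-90153686 on the − strand for Iqca.
Hydin: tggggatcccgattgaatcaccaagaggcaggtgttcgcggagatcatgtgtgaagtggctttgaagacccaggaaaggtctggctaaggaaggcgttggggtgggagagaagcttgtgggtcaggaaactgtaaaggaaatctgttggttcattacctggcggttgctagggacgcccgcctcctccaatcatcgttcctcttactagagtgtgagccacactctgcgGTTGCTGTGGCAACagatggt
Spag16: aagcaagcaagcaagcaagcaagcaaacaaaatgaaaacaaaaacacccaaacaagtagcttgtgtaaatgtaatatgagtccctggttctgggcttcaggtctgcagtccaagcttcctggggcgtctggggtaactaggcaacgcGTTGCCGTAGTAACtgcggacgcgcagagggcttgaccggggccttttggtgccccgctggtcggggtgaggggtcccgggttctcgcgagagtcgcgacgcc
Cfap45: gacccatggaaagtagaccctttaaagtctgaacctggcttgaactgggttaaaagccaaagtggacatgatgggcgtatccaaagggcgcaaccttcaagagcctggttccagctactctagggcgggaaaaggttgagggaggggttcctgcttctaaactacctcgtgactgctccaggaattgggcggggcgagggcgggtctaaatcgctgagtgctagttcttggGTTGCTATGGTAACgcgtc
Iqca: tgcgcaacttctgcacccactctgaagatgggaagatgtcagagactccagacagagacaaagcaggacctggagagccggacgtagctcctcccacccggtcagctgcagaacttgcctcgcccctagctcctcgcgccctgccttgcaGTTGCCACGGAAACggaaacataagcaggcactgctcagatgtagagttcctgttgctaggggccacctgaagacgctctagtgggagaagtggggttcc
In Hydin and Cfap45 the motif is read on the strand opposite to the gene, so the capitals show its reverse complement.

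Gene lists of ciliary parts were set beside other cells as a description. The gate selects cells by ciliary genes, and members were filtered by their level in gated cells. Members with at least 10 CPM in gated cells of every library were counted when their log2 ratio to the other cells was above 1 in every library. This held for 18 of 18 genes of the inner dynein arm and nexin link, 18 of 18 of the radial spoke and central pair, 16 of 16 ependymal markers and 10 of 12 of the outer dynein arm. The counts were 15 of 19 for axonemal tubulins and inner proteins, 18 of 27 for intraflagellar transport and the BBSome and 8 of 14 for regulators of multiciliogenesis. They were 8 of 11 for dynein assembly, 17 of 22 for mouse hydrocephalus genes and 3 of 16 for planar polarity, the lowest of the 10 lists. Intraflagellar transport and the BBSome also serve the primary cilia of other cells. Over all 8161 genes at that level, 1144 reached it. Mcidas, the inducer that opens the multiciliated program in precursors, was at 0 to 1.66 CPM in gated cells, and Ccno, a cyclin of centriole amplification, was at 3.61 to 27 CPM. Rfx3 was at 102 to 143 CPM in gated cells and 66.8 to 106 CPM in astroglia. Trp73 was at 18.4 to 54.3 and 0 to 0.831 CPM. Rfx3 was therefore shared with astroglia and Trp73 was near 0 there.

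The difference between cKO and control in gated cells was tested on UMIs summed per library, with edgeR's quasi-likelihood test and Benjamini-Hochberg adjustment over all genes tested. Every cKO library carries Cre and no control does, so the Prdm16 deletion and Cre cannot be told apart in any of these values. Between cKO and control 23 genes were called higher (adjusted p under 0.05, 0.169% of 13576 genes tested) and 0 lower (0%). In marker-dense cells 24 genes were higher (0.182% of 13219) and 1 was lower (0.00756%). In all, 39 different genes were called in either set and 9 in both. Every called gene had the same direction in the other set (23 of 23 and 25 of 25). The marker-dense cells are a part of the gated cells, so this agreement is no separate support. Same-numbered cKO and control libraries deviated together. With the replicate number as a block, in a fit without the DKO library, 410 genes were higher and 233 lower in gated cells (3.32 and 1.89% of 12340). In marker-dense cells 112 were higher and 65 lower (0.934 and 0.542% of 11992). The block fit has fewer residual degrees of freedom than the main fit. Without the DKO library and without the block, 22 genes were called in gated and 24 in marker-dense cells. Without a test, in gated cells 9.69% of all genes had all 3 cKO libraries above all 3 controls and 6.46% had all 3 below. In marker-dense cells these shares were 7.37 and 6.2%.

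The counts rested on single libraries. In gated cells 2, 2 and 1 genes were called without control 1, 2 or 3, 3 and 7 without cKO 2 or 3 and 1292 without cKO 1. The last was the lowest of the 3 cKO libraries for each of the 23 called genes. In marker-dense cells 0 genes were called by edgeR without control 2 or control 3 (916 and 966 at an unadjusted p under 0.05) and 396 without cKO 1. Without control 1, cKO 2 and the DKO library, those with Xist near 0, 3 genes were called in each set, and without the shared barcodes 28 in each. Directions held for the 23 and the 25 called genes wherever they were tested. All of these genes were without overlap between the genotypes, and the refits reuse the same libraries. A change of direction was thus unlikely from the start, and this is no separate support.

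The targeted gene came first as a check of the labels. Prdm16 (chr4:154316125-154636873, − strand) was at 30.7, 13.7 and 19 CPM in marker-dense control cells, 19.1, 12.3 and 13.8 CPM in the cKO libraries and 13.8 CPM in the DKO library (log2 fold change −0.52 ± 0.27 SE, adjusted p = 0.684). In all gated cells it was at 33.5, 18.3 and 21.3 CPM in the controls, 22.4, 26.5 and 21.3 CPM in the cKO libraries and 20 CPM in the DKO library (log2 fold change −0.05 ± 0.23 SE, adjusted p = 0.969). The genotypes overlapped, and counts from the 3′ end of a transcript do not show whether floxed exons are missing, so these values check nothing about the deletion.

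Vcam1 (chr3:116109949-116129688, − strand) was called in gated cells, where it was at 24, 29.9 and 29 CPM in the controls and 55, 101 and 98.2 CPM in the cKO libraries (log2 fold change 1.71 ± 0.27 SE, adjusted p = 0.0459). In marker-dense cells it was at 19.2, 18.3 and 24.6 CPM in control and 26.9, 42.2 and 47.1 CPM in cKO (log2 fold change 0.88 ± 0.26 SE, adjusted p = 0.282, and 0.0436 with the replicate block). Every cKO library lay above every control. Marker-sparse cells held 61 to 124 CPM in the controls and 166 to 223 CPM in the cKO libraries, and astroglia held 185 to 220 and 219 to 237 CPM. In the DKO library, where Vcam1 is floxed as well, marker-dense cells were at 7.5 CPM, below all 6 other libraries, and astroglia were at 120 CPM. The DKO has 1 library and no test.

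Prm1, which encodes the sperm protein protamine 1 (chr16:10796326-10805839, − strand), was near 0 in the controls and present in every library with hGFAP-Cre. It is given here as a possible readout of the Cre transgene. Many transgenes take their 3′ end from Prm1, and reads of such a transgene cannot be told apart here from those of the gene itself. The 3′ end of this transgene is not given in the sources used here. Every cKO library carries Cre and no control does, so Cre and the Prdm16 deletion cannot be told apart in this comparison. In gated cells 2 UMIs in the controls faced 2074 in the cKO libraries, a ratio of 901 (exact 95% interval 249 to 7442, counting error only). In marker-dense cells it was at 0.369, 0 and 0.216 CPM in the controls, 48.3, 33.8 and 139 CPM in the cKO libraries and 61.9 CPM in the DKO library. In marker-sparse cKO cells it was at 377 to 601 CPM. Astroglia held 0 CPM in the controls and 86 to 262 CPM in the cKO libraries, and endothelial cells 0 and 3.16 to 12.4 CPM. The adjusted p was 8.93e-05 in gated cells, 0.176 in marker-dense cells and 3.47e-09 in marker-dense cells with the replicate block.

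The 9 genes called in both sets were Esr1, Ptx3, Gm48050, Cavin2, Cntf, Ccdc3, 0610040J01Rik, Nbl1 and Arsb, all higher in cKO. Esr1 encodes estrogen receptor alpha (chr10:4611593-5005614, + strand). In marker-dense cells it was at 0.739, 0 and 0.216 CPM in the controls, 19.9, 48.3 and 34.4 CPM in the cKO libraries and 23.1 CPM in the DKO library. A total of 3 UMIs in the controls faced 204 in the cKO libraries, a ratio of 81.6 (exact 95% interval 27.5 to 399). The fit gave a log2 fold change 6.27 ± 0.57 SE, adjusted p = 0.000949. Esr1 UMIs were present in 0.641, 0 and 0.227% of marker-dense control cells, 12.7, 23 and 27.4% of cKO cells and 10.5% of DKO cells. After each cell was thinned to 2000 UMIs they were present in 0, 0 and 0% in control, 4.02, 7.06 and 6.4% in cKO and 3.77% in DKO. In astroglia Esr1 stood at 0 to 0.752 CPM in the 7 libraries, and endothelial cells held 0.518 to 3.16 CPM. The call was lost in gated cells without control 3 (adjusted p = 0.0694) and in marker-dense cells without control 2 or control 3.

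Among signalling molecules, Cntf, the ciliary neurotrophic factor (chr19:12763660-12765632, − strand), was at 14, 27.4 and 21.1 CPM in marker-dense control cells, 50.3, 81.3 and 79.2 CPM in the cKO libraries and 56.9 CPM in the DKO library (log2 fold change 1.91 ± 0.27 SE, adjusted p = 0.0167). Cntf overlaps Zfp91 on the same strand, so reads of the pair could be split between them and the level is uncertain. Nbl1, a secreted antagonist of bone morphogenetic proteins, was at 5.54, 18.3 and 6.47 CPM in control, 37.4, 82.9 and 70.8 CPM in cKO and 31.9 CPM in DKO (log2 fold change 3.18 ± 0.43 SE, adjusted p = 0.0277). Marker-sparse cKO cells had a mean of 294 CPM. Ptx3, a secreted pattern recognition protein whose gene lies within Veph1 on the other strand (chr3:66219910-66225805, + strand), was at 4.8, 6.85 and 3.45 CPM in control, 19.5, 16.1 and 34.1 CPM in cKO and 8.13 CPM in DKO (log2 fold change 2.52 ± 0.38 SE, adjusted p = 0.0139). Astroglia held 15 to 30 CPM of it in the controls and 73 to 200 CPM in the cKO libraries. All 3 were higher in each cKO library than in each control, and for each the DKO library lay above the controls.

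Ccdc3, a secreted coiled-coil protein (chr2:5137776-5230878, + strand), was at 64.6, 77.6 and 55.6 CPM in marker-dense control cells, 111, 151 and 161 CPM in the cKO libraries and 114 CPM in the DKO library (log2 fold change 1.21 ± 0.20 SE, adjusted p = 0.0206). Ucma, a secreted matrix protein known from cartilage, lies on the same strand of chromosome 2 at a distance of 152 kb with 3 genes between (chr2:4976122-4985748, + strand). Ucma was at 65.7, 112 and 70.7 CPM in control, 187, 381 and 421 CPM in cKO and 400.1 CPM in DKO. It was called in gated cells (adjusted p = 0.0266) but not in marker-dense cells (log2 fold change 2.14 ± 0.35 SE, adjusted p = 0.0646, and 5.67e-05 with the replicate block). Both genes were higher in every cKO library than in every control, and the DKO library was above the controls in both.

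Cavin2, a coat protein of caveolae that is abundant in endothelium (chr1:51289126-51302960, + strand), was at 81.2, 54.8 and 52 CPM in marker-dense control cells, 160.5, 322 and 238 CPM in the cKO libraries and 199 CPM in the DKO library (log2 fold change 1.97 ± 0.27 SE, adjusted p = 0.0139). Endothelial cells held 360 to 552 CPM and astroglia 0.642 to 6.42 CPM. The gate leaves out cells with a Cldn5 UMI, so the low endothelial list given above is partly set by it. The part of endothelial RNA in the Cavin2 level was not tested. Arsb, a lysosomal sulfatase, was at 46.9, 50.2 and 45.1 CPM in control, 73.6, 104 and 89.2 CPM in cKO and 45 CPM in DKO (log2 fold change 0.97 ± 0.18 SE, adjusted p = 0.0433, and 0.0532 without the shared barcodes). Its DKO value lay just below the lowest control. Gm48050, a gene without a known function (chr13:98608411-98617662, − strand), was at 2.58, 0 and 3.02 CPM in control, 16, 36.1 and 31 CPM in cKO and 16.9 CPM in DKO (log2 fold change 3.37 ± 0.43 SE, adjusted p = 0.0139). Another uncharacterised gene, 0610040J01Rik, was at 0.739, 2.28 and 0.863 CPM in control, 6.62, 9.97 and 10.3 CPM in cKO and 2.5 CPM in DKO (log2 fold change 3.24 ± 0.56 SE, adjusted p = 0.0277).

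**Figure D4:**
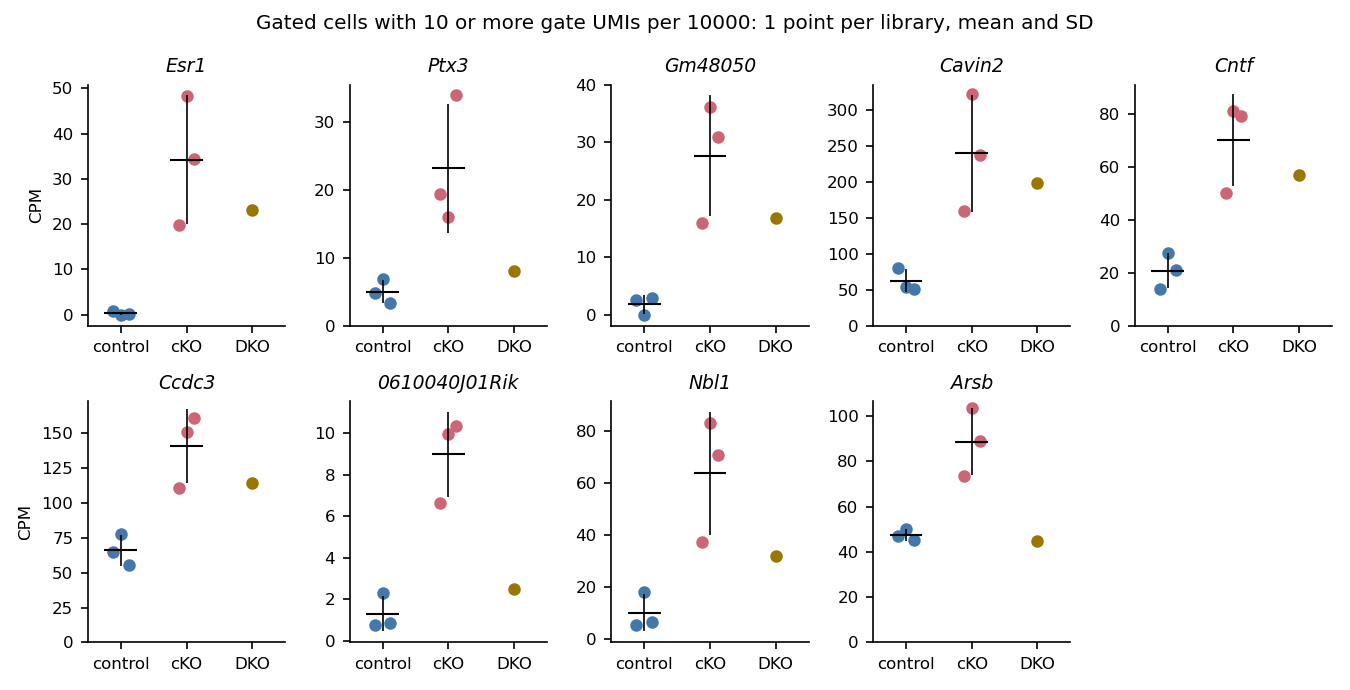
CPM in marker-dense cells of the 9 genes called in both sets, with 1 point per library, a horizontal line at the mean and a vertical line of 1 SD for the 3 control and the 3 cKO libraries. In each panel the cKO points lie above the control points, as for Esr1 with 0 to 0.739 CPM in the controls and 19.9 to 48.3 CPM in the cKO libraries.

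A further 15 genes were called higher in marker-dense cells alone. Cp, the ferroxidase ceruloplasmin, was at 70.9, 68.5 and 67.9 CPM in the controls, 117, 219 and 184 CPM in the cKO libraries and 178 CPM in the DKO library (log2 fold change 1.37 ± 0.23 SE, adjusted p = 0.0277). Rgs10, an inhibitor of G protein signalling, was at 20.7, 16 and 14.7 CPM in control, 42.1, 40.7 and 54.3 CPM in cKO and 37.5 CPM in DKO (log2 fold change 1.47 ± 0.22 SE, adjusted p = 0.0139). Wls, which carries Wnt ligands to the cell surface, was at 64.6, 50.2 and 48.1 CPM in control, 98.2, 101 and 93.4 CPM in cKO and 90 CPM in DKO (log2 fold change 0.88 ± 0.16 SE, adjusted p = 0.0385). Neither Rgs10 nor Wls overlapped between the genotypes. Reln, the extracellular guidance protein reelin, was at 3.69, 0 and 2.59 CPM in control, 13.6, 17.6 and 19.9 CPM in cKO and 3.75 CPM in DKO (log2 fold change 2.63 ± 0.40 SE, adjusted p = 0.0139). Gpld1, a phospholipase that releases anchored proteins, was at 39.9, 43.4 and 36.7 CPM in control, 62.3, 93.6 and 99.1 CPM in cKO and 99.4 CPM in DKO (log2 fold change 1.17 ± 0.21 SE, adjusted p = 0.0333). The transcription factor gene Cebpd was at 7.39, 6.85 and 6.47 CPM in control, 24.5, 19.9 and 38.6 CPM in cKO and 20.6 CPM in DKO (log2 fold change 2.09). The receptor phosphatase gene Ptpro was at 9.6, 2.28 and 6.26 CPM in control, 19.5, 33.8 and 29.1 CPM in cKO and 16.3 CPM in DKO (log2 fold change 1.95). C1ql3, Tmem100, Gm2115, Pfkfb3, Rcan2 and Paqr8 were also called, with log2 fold changes of 2.36, 2.33, 3.49, 1.85, 1.75 and 1.83.

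Genes of astroglia were among those called in marker-dense cells. Slc4a4, a sodium bicarbonate cotransporter, was at 78.3, 70.8 and 82.6 CPM in the controls, 151, 266 and 268 CPM in the cKO libraries and 137 CPM in the DKO library (log2 fold change 1.60 ± 0.24 SE, adjusted p = 0.0172). Astroglia held 703 to 1423 CPM. Ntsr2, a neurotensin receptor of astrocytes, was at 37.3, 38.8 and 33.9 CPM in control, 83, 109 and 173 CPM in cKO and 71.3 CPM in DKO (log2 fold change 1.82 ± 0.28 SE, adjusted p = 0.0294). Astroglia held 771 to 1418 CPM. Of the 25 genes called in marker-dense cells, 16 had a higher control mean in astroglia than in marker-dense cells and 16 a higher median in marker-sparse than in marker-dense cells. No share over all genes tested stands beside these counts, so they do not set the called genes apart from other genes. The summed astrocyte list in marker-dense cells was 1390 to 1645 CPM in the controls and 1812 to 2040 CPM in the cKO libraries, and its part in these calls was not tested.

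The 1 gene called lower was Cxcl14, a chemokine (chr13:56288643-56296551, − strand). It was at 22.2, 18.3 and 20.9 CPM in marker-dense control cells, 7.79, 4.6 and 6.5 CPM in the cKO libraries and 25.6 CPM in the DKO library (log2 fold change −1.63 ± 0.27 SE, adjusted p = 0.0242). The cKO libraries lay below the controls without overlap, while the DKO library lay above them. Astroglia held more of it, at 158 to 363 CPM over the libraries.

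The remaining 14 genes were called in gated cells alone. Besides Prm1, Ucma and Vcam1 they were Fgl2, Opcml, Gpr179, Tmem132c, 2210011C24Rik, A730009L09Rik, Gfra2, Veph1, Clstn2, Lifr and Agt. Opcml, an adhesion molecule of neural membranes, was at 8.81, 6.64 and 12.6 CPM in gated control cells, 67, 131 and 163 CPM in the cKO libraries and 61.5 CPM in the DKO library. Its marker-sparse cKO cells were at 297, 219.96 and 286 CPM. Gfra2, a co-receptor of neurturin, was at 4.58, 8.3 and 2.9 CPM in control, 17.7, 36.1 and 40.5 CPM in cKO and 14.5 CPM in DKO. Lifr, a receptor subunit that responds to leukemia inhibitory factor and Cntf, was at 10.9, 6.64 and 8.51 CPM in control, 21.7, 37.7 and 29.9 CPM in cKO and 29 CPM in DKO (adjusted p = 0.0454, and 0.142 in marker-dense cells). Agt, angiotensinogen, was at 148, 83 and 115 CPM in control, 261, 359 and 360.04 CPM in cKO and 118 CPM in DKO (log2 fold change 1.55 ± 0.25 SE, adjusted p = 0.046). In marker-dense cells its log2 fold change was 0.40 (adjusted p = 0.731). Marker-sparse cells held 7.77 to 12.2 CPM of Agt in the controls and 351 to 682 CPM in the cKO libraries. The control values rest on very few molecules. Of 420, 50 and 596 Agt UMIs in gated control cells, 419, 48 and 590 lay in marker-dense cells. Of the 23 genes called in gated cells 17 had a higher median in marker-sparse than in marker-dense cells. Here too no share over all genes tested stands beside the count, so it does not set the called genes apart. The part of the larger marker-sparse share of cKO 2 and cKO 3 in these calls was not tested. By contrast 2210011C24Rik, an uncharacterised gene, was near 0 in marker-sparse cells. It was at 2.95, 4.56 and 6.69 CPM in control, 21, 51.4 and 49 CPM in cKO and 54.4 CPM in DKO in marker-dense cells (adjusted p = 0.0576, and 0.0282 in gated cells). The DKO values given with these genes are set against the same controls as the cKO values.

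Genes of the motile cilium were tested between cKO and control 1 by 1 and summarised as 10 lists, with no test of a list. They covered ependymal markers, multiciliogenesis regulators, outer dynein arm, inner dynein arm and nexin link, radial spoke and central pair, dynein assembly, axonemal proteins, intraflagellar transport, planar polarity and mouse hydrocephalus genes. In them 0 members passed the test in either set of cells. With 0.169% of all genes called higher and 0% lower in gated cells, and 0.182 and 0.00756% in marker-dense cells, a count of 0 is what the background gives for lists of this size. In all gated cells the list medians of log2 fold change were −0.32 for ependymal markers, −0.36 for the outer arm, −0.42 for the inner arm, −0.42 for the spoke and central pair and −0.46 for dynein assembly. The median of all genes was 0.00. In marker-dense cells they were −0.03, −0.07, −0.13, −0.15 and −0.18, beside 0.01 for all genes. Marker-dense cells were selected in every library by their density of the ciliary gate genes. Cells with less of the ciliary program were thus left out by rule, which can make these medians smaller. The marker-dense medians therefore cannot show whether the ciliary program was unchanged in ependymal cells. With the replicate block 1, 2, 2 and 1 members of the outer arm, inner arm, spoke and assembly lists were called lower in gated cells, beside 1.89% of all genes, and 0 in marker-dense cells, beside 0.542%. By library, the spoke and central pair list of gated cells stood at 0.07 in cKO 1, −0.83 in cKO 2 and −0.71 in cKO 3 against the control mean. In marker-dense cells it stood at 0.05, −0.26 and −0.29. Marker-sparse cells made up 14.4, 47.7 and 40.9% of gated UMIs in these libraries, and their part in the medians was not tested.

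Values of single ciliary genes follow for marker-dense cells, where none of those named was called. Hydin was at 327, 251 and 297 CPM in the controls, 324, 265 and 244 CPM in the cKO libraries and 270.1 CPM in the DKO library (log2 fold change −0.03 ± 0.17 SE, adjusted p = 1). Dnah5, the outer arm heavy chain whose loss gives primary ciliary dyskinesia, was at 342, 239.7 and 319.9 CPM in control, 327, 255 and 238 CPM in cKO and 261 CPM in DKO (log2 fold change −0.10 ± 0.18 SE, adjusted p = 0.966). Spag17 was at 259.98, 226 and 298 CPM in control, 215, 170.3 and 145 CPM in cKO and 256 CPM in DKO (log2 fold change −0.54 ± 0.18 SE, adjusted p = 0.378). Every cKO library lay below every control for Spag17. Rsph1 had a log2 fold change of −0.01 ± 0.19 (SE), Trp73 of −0.03 ± 0.18, Rfx3 of −0.10 ± 0.15 and Myb, a regulator of early multiciliogenesis, of −0.04 ± 0.18. A p that misses the threshold with 3 and 3 libraries does not show that these levels were equal. Selection by the density of ciliary gate genes also limits how far ciliary genes could differ in marker-dense cells.

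**Figure D5:**
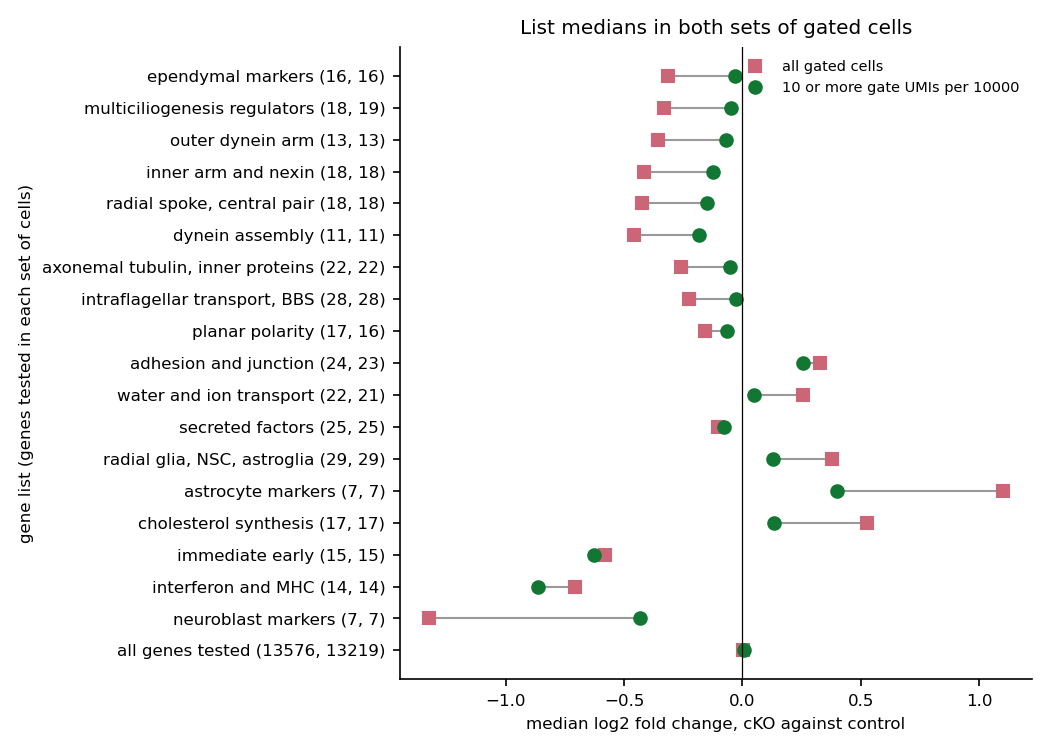
Median log2 fold change between cKO and control for a selection of the gene lists in all gated cells (squares) and in marker-dense cells (circles), with the numbers of genes tested beside the names. The ciliary lists shown lie between −0.46 and −0.16 in all gated cells and between −0.18 and −0.03 in marker-dense cells, and the interferon and antigen presentation list is at −0.71 and −0.87. The list of mouse hydrocephalus genes is not plotted. Marker-dense cells were selected by their density of ciliary gate genes, which limits what their ciliary medians can show.

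Secreted products of ependymal cells were summarised as a list of 25 tested genes, with a median of −0.10 in gated and −0.08 in marker-dense cells and 0 members called. In marker-dense cells 6 of the 25 had all 3 cKO libraries below all 3 controls (24.0%, beside 6.2% of all genes) and 2 had all above, beside 7.37%. With the block 3 of 25 were called higher and 2 lower in gated cells, beside 3.32 and 1.89% of all genes. In marker-dense cells 1 was higher and 1 lower, beside 0.934 and 0.542%. Rarres2 was at 3150.4, 3787 and 3660.1 CPM in marker-dense control cells, 3476, 3057 and 2671 CPM in the cKO libraries and 2669 CPM in the DKO library (log2 fold change −0.16 ± 0.20 SE, adjusted p = 0.949). Mia, a small secreted protein first described in melanoma, was at 1000.02, 1493 and 1484 CPM in control, 958, 475 and 521 CPM in cKO and 908 CPM in DKO (log2 fold change −0.99 ± 0.27 SE, adjusted p = 0.222, and 0.34 with the replicate block). Every cKO library lay below every control. Igfbp2, a binding protein of insulin-like growth factors, was at 102, 79.9 and 76.8 CPM in control, 72.8, 40.7 and 43.6 CPM in cKO and 55.6 CPM in DKO (log2 fold change −0.67, adjusted p = 0.286, and 0.0436 with the replicate block). Lbp, a leading gene that is on no list, was at 708, 829 and 597 CPM in control, 531, 339.9 and 359 CPM in cKO and 341 CPM in DKO (log2 fold change −0.73, adjusted p = 0.205, and 0.0332 with the block). Lbp and Igfbp2 did not overlap between the genotypes and passed the test with the block alone.

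Adhesion and junction genes had a median of 0.33 in gated and 0.25 in marker-dense cells. Of 23 tested in marker-dense cells 10 had all 3 cKO libraries above all 3 controls, beside 7.37% of all genes, and 0 were called. Vcam1 was the 1 called in gated cells. With the block 6 of 22 were called higher and 2 lower in gated cells, beside 3.32 and 1.89% of all genes. In marker-dense cells 2 of 22 were higher and 1 lower, beside 0.934 and 0.542%. Gja1, the gap junction protein connexin 43, was at 647, 603 and 513 CPM in marker-dense control cells and 645, 1026 and 814 CPM in the cKO libraries (adjusted p = 0.43). Cdh2, N-cadherin, was at 113, 89 and 121 CPM in control and 136, 157 and 159.9 CPM in cKO (adjusted p = 0.395). In the list of water and ion transport, with a median of 0.05 in marker-dense cells, Slc4a4 was the 1 member of 21 called, and with the block 3 of 20 were called higher, beside 0.934% of all genes. In gated cells 0 were called, and with the block 6 of 21 were higher and 1 lower, beside 3.32 and 1.89%. Aqp4, the water channel of ependymal and astrocyte membranes, was at 831, 637 and 654 CPM in control, 706, 756 and 594 CPM in cKO and 669.6 CPM in DKO (log2 fold change 0.01 ± 0.18 SE, adjusted p = 1).

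Genes of the interferon response and antigen presentation had a median of −0.87 over 14 tested in marker-dense cells. In 5 of them the cKO libraries lay below the controls without overlap, beside 6.2% of all genes, and 0 were called. H2-D1, a class I major histocompatibility gene, was at 62, 77.6 and 37.1 CPM in the controls, 25.7, 29.2 and 23 CPM in the cKO libraries and 45.6 CPM in the DKO library (log2 fold change −1.02 ± 0.23 SE, adjusted p = 0.103, and 0.0115 with the block). With the block 3 of 11 members were lower, beside 0.542% of all genes. Immediate early genes, known to respond to tissue dissociation, had a median of −0.63, with 0 of 15 above 0 and 0 called, and 6 of 15 lower with the block, beside 0.542% of all genes. In gated cells 7 of 15 were lower with the block, beside 1.89%. Fos was at 1968, 1137 and 1555 CPM in control, 1373, 486 and 938 CPM in cKO and 2411 CPM in DKO, so its genotypes overlapped. Oligodendrocyte genes summed to 596 to 1139 CPM in marker-dense control cells and 334 to 801 CPM in the cKO libraries. Their median was −0.76 over 7 genes and 0 were called. With the block 2 of 7 were lower in marker-dense cells, beside 0.542% of all genes, and 2 of 7 in gated cells, beside 1.89%.

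Radial glia and astroglia genes had a median of 0.38 over 29 in gated cells, where Agt was the member called. In marker-dense cells the median was 0.13, and Ntsr2 was the member called. There 17 of the 29 members had a log2 fold change above 0. All 3 cKO libraries lay above all 3 controls for 6 of the 29 (20.7%, beside 7.37% of all genes). They lay below for 1 (3.45%, beside 6.2%). With the block 10 of 29 were called higher in gated cells, beside 3.32% of all genes, and 4 of 28 in marker-dense cells, beside 0.934%. The 7 astrocyte markers had medians of 1.10 and 0.40, and 4 and 2 of them were called higher with the block, beside the same shares. Slc1a3, the glutamate transporter of radial glia, was at 298, 379 and 353 CPM in marker-dense control cells and 471, 572 and 740 CPM in the cKO libraries (log2 fold change 0.86 ± 0.22 SE, adjusted p = 0.159, and 0.00918 with the block). Gfap was at 62.8, 38.8 and 27.4 CPM in control and 82.6, 95.1 and 136 CPM in cKO (log2 fold change 1.35 ± 0.31 SE, adjusted p = 0.174). Every cKO library lay above every control for both genes. Genes of cholesterol synthesis had a median of 0.53 in gated cells, with 8 of 17 without overlap above the controls, beside 9.69% of all genes. In marker-dense cells the median was 0.13 with 2 of 17, beside 7.37% of all genes, and 0 were called in either set. With the block 4 of 17 were called higher in gated cells, beside 3.32% of all genes, and 0 in marker-dense cells. Reactive glia genes had medians of 0.06 and −0.20, with Ptx3 called in gated cells and Ptx3 and Cp in marker-dense cells, and 4 and 2 of 14 called higher with the block, beside 3.32 and 0.934% of all genes.

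The remaining lists had 0 members called. With the block 3 neuroblast markers were lower in gated cells, 1 regional transcription factor was higher in gated cells, 1 mural marker was higher in each set, 1 marker of oligodendrocyte precursors was higher in gated cells and 1 oxidative phosphorylation gene was higher in marker-dense cells. The shares of all genes called with the block were 3.32 and 1.89% (higher and lower) in gated and 0.934 and 0.542% in marker-dense cells. Medians in gated and marker-dense cells were 0.23 and 0.15 for the 13 mitochondrially encoded genes, 0.22 and 0.12 for 81 nuclear genes of oxidative phosphorylation, 0.07 and 0.09 for 80 cytosolic ribosomal protein genes. Heat shock genes had −0.22 and −0.14. Regional transcription factors had −0.19 and −0.34, and neuroblast markers −1.33 and −0.43. Haemoglobin genes, a sign of red cell RNA, had 3.43 and 1.48. In marker-dense cells they summed to 285 to 357 CPM in the controls, 35.1, 145 and 2580.05 CPM in the cKO libraries and 2233 CPM in the DKO library. Against the control mean their median was −2.94, −1.02 and 2.90 in cKO 1, 2 and 3, so the positive median in marker-dense cells rested on cKO 3.

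Whether the cKO difference in gated cells differed from that in other cell types was tested as an interaction in edgeR with the library as a block. Against astroglia 6 of 14479 genes were called (0.0414%), and against endothelial cells 8 of 14148 (0.0565%). The log2 fold change of Nbl1 in gated cells exceeded that in astroglia by 2.30 ± 0.21 (SE, adjusted p = 0.000685). Nbl1 was also called when marker-dense cells were used (1.63, adjusted p = 0.00926). Mlc1, a membrane protein of astrocytes and ependymal cells, exceeded astroglia by 1.02 ± 0.15 in gated and by 0.75 in marker-dense cells. It was at 321, 324 and 252 CPM in marker-dense control cells and 428, 407 and 387 CPM in the cKO libraries. In astroglia it was at 501, 576 and 344 CPM in control and 405, 418 and 329 CPM in cKO. Cavin2 exceeded endothelial cells by 1.79 ± 0.21 (SE, adjusted p = 0.0021) in gated cells and by 2.10 in marker-dense cells. Without cKO 1 the counts were 1310 and 372, and without control 3 they were 1 and 1.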

How the data were processed

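Single-cell 3′ libraries (10x Genomics Chromium v3.1) of 3 control, 3 cKO and 1 DKO pool were analysed from the deposited matrices, which hold raw UMI counts per gene and barcode made by the authors with Cell Ranger on mm10 (6.1.1 per the submitters' processing notes, 6.0.1 in the file headers of control 1, control 2, cKO 1 and cKO 2). The members and lists were chosen with earlier results of these data known. Cells were filtered and gated as described, without doublet removal (Scrublet in scanpy 1.11.5, expected rate 0.08). Counts of gated cells were summed per library and tested with edgeR 4.0.16 in R 4.3.3 (filterByExpr, TMM, robust quasi-likelihood test, Benjamini-Hochberg adjusted p under 0.05) with all 7 libraries in 1 fit. CPM are summed counts per 1000000 UMIs of the same cells. Named by rule were the gate genes, Prdm16, Vcam1, Prm1, called genes, the 25 leading genes, called and up to 4 most abundant members of each list, and interaction genes. Outside the rule, Mcidas, Ccno, Trp73, Gfap, Cdh2, Celsr2, Vangl2, Igfbp2, Mia, Sox9, S100b and Iqca were chosen after their values were seen. Deviations from group means correlated at 0.38, 0.15 and 0.30 between same-numbered control and cKO libraries (−0.35 to 0.06 otherwise), so the number was also used as a block. All fits with the block left out the DKO library. Intervals cover counting error only. Tests were checked on simulated data, and gene coordinates are from GENCODE vM21 (mm10).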

Additional observations from a re-analysis of the deposited data

Results flagged for a closer look

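Several genes differed between gated cells and another cell type in their cKO response, by edgeR's test of the interaction with Benjamini-Hochberg adjustment, and each value here is the log2 fold change in gated cells minus that in the other cells. Against astroglia Nbl1 was higher by 2.30, Opcml by 2.16, C1qc by 5.07, Paqr8 by 1.72 and Mlc1 by 1.02, and Hist1h2ap stood at −2.14. Nbl1 and Mlc1 were called again in marker-dense cells (adjusted p = 0.00926 and 0.0318), and Opcml, C1qc, Paqr8 and Hist1h2ap were not (adjusted p = 0.0935, 0.148, 0.0859 and 0.706). C1qc, a complement gene of microglia, was at 2.12, 4.98 and 0.58 CPM in gated control cells and 1.33, 2 and 15.2 CPM in the cKO libraries, and at 23.2, 39.5 and 9.14 CPM in control and 1.25, 0.752 and 3.38 CPM in cKO in astroglia. Hist1h2ap, a histone of dividing cells, was at 7.05, 158 and 189.6 CPM in control and 8.01, 64.5 and 42.5 CPM in cKO in gated cells, so the genotypes overlapped.

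Against endothelial cells the difference was 1.79 for Cavin2, 1.54 for Lxn, 2.97 for Gfra2, 2.13 for Rcan2, 1.83 for Lifr, 1.46 for Magi3, 2.23 for Chst2 and 1.11 for Pea15a. In marker-dense cells Cavin2, Rcan2 and Chst2, a sulfotransferase, were called again (adjusted p = 0.031, 0.0157 and 0.031). Lxn, Gfra2, Lifr, Magi3 and Pea15a had adjusted p-values of 0.088, 0.0563, 0.0843, 0.188 and 0.3 there. Chst2 was at 256, 152 and 145 CPM in marker-sparse control cells and 304, 385 and 243 CPM in marker-sparse cKO cells, against 22.9, 9.13 and 13.2 CPM in control and 29.2, 34.5 and 42.5 CPM in cKO in marker-dense cells.

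The DKO library was part of the fit, and no contrast with it was tested. In its gated cells Esr1 was at 18.0 CPM and Prm1 at 181 CPM, both above every control library.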

How the results depend on the processing

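Among gated cells, where 23 genes were called, DESeq2 called 190, no filter on low counts 255, the replicate block 643, a limit of 5% mitochondrial UMIs 111, a gate sum of 8 or more 70, a gate on cells thinned to 2000 UMIs 41 and equal numbers of cells 48, and 3 were called without the libraries with Xist near 0. Leaving out 1 library gave 1 to 1292. In marker-dense cells, where 25 were called, the counts were 73 with DESeq2, 345 with no filter, 177 with the replicate block, 64 with the Cell Ranger version as a factor, 38 without doublets, 122 with no upper limit on genes and 3 without the libraries with Xist near 0, and leaving out 1 library gave 0 to 396. For the interactions a gate sum of 8 gave 14 against astroglia and 28 against endothelial cells, marker-dense cells gave 28 against astroglia, and leaving out 1 library gave 1 to 1310 and 1 to 372. Among all gated cells 21 to 29 genes were called without the DKO library, with version as a factor, without ribosomal RNA, Malat1 and mitochondrial genes, without doublets, without shared barcodes and with no upper limit on genes. Prdm16, which was not called, had a log2 fold change of −0.05, which ranged from −0.16 to 0.22 when 1 library was left out. Its sign changed to 0.22 without control 1, 0.12 without the libraries with Xist near 0, 0.11 with at most 5% mitochondrial UMIs and 0.053 with equal numbers of cells, and to 0.10 in marker-dense cells with at most 5% mitochondrial UMIs. With mitochondrial genes left out, their list could give no value. The cause of these shifts was not tested. The alternatives on density, shared barcodes, the upper limit on genes and Xist were chosen after the data were seen. A control 2 of 87 gated cells and 602437 UMIs limits what low genes can show.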

Other observations

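Marker-dense cells also carried genes that ependymal cells share with other glia, and these were not called between the genotypes. Sox9, a transcription factor of glial lineages, was at 1226, 781 and 917 CPM in the controls, 986, 911 and 624 CPM in the cKO libraries and 976 CPM in the DKO library, and its level in astroglia was 468 to 797 CPM. Vim, the intermediate filament vimentin, was at 1320.1 to 1704 CPM in marker-dense cells and 269 to 475 CPM in astroglia over the 7 libraries. S100b, a calcium binding protein, was at 382, 616 and 605 CPM in control, 462, 792 and 622 CPM in cKO and 526 CPM in DKO in marker-dense cells (log2 fold change 0.28 ± 0.25 SE, adjusted p = 0.897). In astroglia S100b was at 73.6, 127 and 96.6 CPM in the controls and 107, 349 and 284 CPM in the cKO libraries. The same 2 cKO libraries that were high for S100b in astroglia, cKO 2 and cKO 3, were also high for Igfbp2 there, at 22.8, 247 and 198 CPM in the cKO libraries against 31.1, 39.9 and 37.5 CPM in the controls, while Igfbp2 in marker-dense cells was lower in each cKO library than in each control.

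Planar polarity genes, which align the beat of ependymal cilia, had 0 members called. Celsr2 was at 31.4, 27.4 and 34.7 CPM in marker-dense control cells, 31.9, 30.7 and 41.7 CPM in the cKO libraries and 24.4 CPM in the DKO library (log2 fold change 0.17 ± 0.21 SE, adjusted p = 0.942), and Vangl2 at 19.6, 9.13 and 17 CPM in control, 19.5, 29.9 and 24.1 CPM in cKO and 20.6 CPM in DKO (log2 fold change 0.54 ± 0.25 SE, adjusted p = 0.632). Both were higher in astroglia than in marker-dense cells of every library, at 44.4 to 64.9 and 31.6 to 47.4 CPM. Ecrg4 was at 475, 714 and 516 CPM in control, 728, 565 and 583 CPM in cKO and 417 CPM in DKO and Stoml3 at 159, 116 and 96.2 CPM in control, 176, 161 and 173 CPM in cKO and 139 CPM in DKO in marker-dense cells, with log2 fold changes of 0.20 and 0.52 and neither called.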
